A study of Mus musculus with 8 samples.

Results

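The genes described here are regulators of the ATF4 stress response (Atf4, Atf5, Atf3, Ddit3, Cebpg, Nupr1, Trib3 and Ppp1r15a), with Chac1 and Fgf21. Chac1 encodes an enzyme of the same response, and Fgf21 a secreted factor. All were taken as the probe sets whose platform gene symbol is one of these names. This gave 17 probe sets of 10 genes, out of 45037 probe sets and 18193 genes on the array. Messenger RNA was measured in the hearts of female mice from a conditional knock-out line driven by MCK, the muscle creatine kinase promoter, which is active in heart and skeletal muscle. The groups were knock-out (KO) mice at 10 weeks, wild-type (WT) mice at 10 weeks, KO mice at 4 weeks and WT mice at 4 weeks, with 2 mice in each and 1 Affymetrix mouse array per heart. The mice of an age were littermates, and the labels do not say whether the WT littermates carried the driver or the conditional allele. The labels name no treatment.

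Cells answer a shortage of amino acids, unfolded protein or failing mitochondria by phosphorylating the translation factor eIF2. Bulk protein synthesis then slows, while the messenger RNA of Atf4 is translated more, and the ATF4 protein switches on genes of amino acid supply together with further regulators, among them factors that end the response. In heart muscle and skeletal muscle the response is known from defects of mitochondrial gene expression and respiration, where FGF21 is released as a hormone. The arrays read messenger RNA only, so neither eIF2 phosphorylation nor ATF4 protein was measured.

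ATF4 binds DNA as a pair with C/EBP proteins at a composite element. To show where this element stands in the genes measured, the 250 bases before the start site of each gene were read from RefSeq (build GRCm38.p6), which held windows for 10 of the 10 genes, 11 windows in all because Atf5 has 2. The element TGATGCAA, or TTGCATCA when read on the other strand, lay in the windows of 4 genes, Nupr1, Chac1, Atf3 and Fgf21, against 260 of 32851 windows of all genes (0.791%). In all 4 it was found as TTGCATCA on the strand of the gene. The cyclic AMP response element TGACGTCA, which is its own reverse complement and is read by the ATF and CREB family, lay in the window of Ppp1r15a and in 1.55% of all windows. These 5 windows are printed because they hold one of the elements searched, in capitals, and each reads 5′ to 3′ on the strand of its gene.
Nupr1, chr7:126625471-126625720, minus strand: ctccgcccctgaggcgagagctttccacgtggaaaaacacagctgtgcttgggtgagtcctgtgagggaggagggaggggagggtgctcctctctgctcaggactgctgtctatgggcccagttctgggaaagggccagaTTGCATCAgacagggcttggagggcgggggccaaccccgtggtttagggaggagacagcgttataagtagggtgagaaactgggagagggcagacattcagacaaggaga
Chac1, chr2:119350992-119351241, plus strand: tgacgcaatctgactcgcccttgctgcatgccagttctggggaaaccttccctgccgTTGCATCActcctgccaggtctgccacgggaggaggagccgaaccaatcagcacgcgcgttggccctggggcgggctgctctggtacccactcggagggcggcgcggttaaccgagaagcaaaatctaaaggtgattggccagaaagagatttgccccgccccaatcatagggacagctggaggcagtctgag
Atf3, chr1:191183334-191183583, minus strand: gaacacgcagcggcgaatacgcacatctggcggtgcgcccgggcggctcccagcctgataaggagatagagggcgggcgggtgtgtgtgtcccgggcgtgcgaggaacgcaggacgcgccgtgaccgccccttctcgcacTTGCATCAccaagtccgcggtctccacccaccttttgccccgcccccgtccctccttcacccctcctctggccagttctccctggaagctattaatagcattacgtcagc
Fgf21, chr7:45615491-45615740, minus strand: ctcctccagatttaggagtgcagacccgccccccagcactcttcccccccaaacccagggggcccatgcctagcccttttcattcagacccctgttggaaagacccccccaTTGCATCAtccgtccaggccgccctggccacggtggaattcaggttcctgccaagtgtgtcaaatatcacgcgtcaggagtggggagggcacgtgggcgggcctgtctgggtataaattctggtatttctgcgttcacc
Ppp1r15a, chr7:45526269-45526518, minus strand: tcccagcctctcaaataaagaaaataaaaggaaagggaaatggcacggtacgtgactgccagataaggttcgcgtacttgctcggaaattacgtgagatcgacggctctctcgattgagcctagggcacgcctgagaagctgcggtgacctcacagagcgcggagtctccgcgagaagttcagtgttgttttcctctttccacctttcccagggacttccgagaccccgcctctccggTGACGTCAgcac

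The composite element began 110 bases before the start site in both Nupr1 and Atf3, 139 bases before it in Fgf21 and 193 bases before it in Chac1. The cyclic AMP response element of Ppp1r15a began 12 bases before the start. A looser form, TGATGNAA on either strand, contains the first form and was found in the same 4 genes, and in 3.45% of all windows. The ER stress response element, read by ATF6, was in none of the 11 windows on either strand and in 0.113% of all windows. A match is a run of letters in this window and not a shown binding site, and a window without one says nothing about the factor. Of the array genes called higher in KO hearts at 10 weeks by the test described next, 14 of 747 with a window (1.87%) held TGATGCAA on either strand. Among genes called lower it was 9 of 1022 (0.881%), and among all array genes with a window 107 of 14368 (0.745%). The 14 called higher include Nupr1, Chac1 and Atf3, since the 10 genes were not taken out of these counts. The looser form was held by 3.61% of the genes called higher, 2.94% of those called lower and 2.83% of all array genes. For the cyclic AMP response element these shares were 2.28%, 2.35% and 2.51%.

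**Figure D1:**
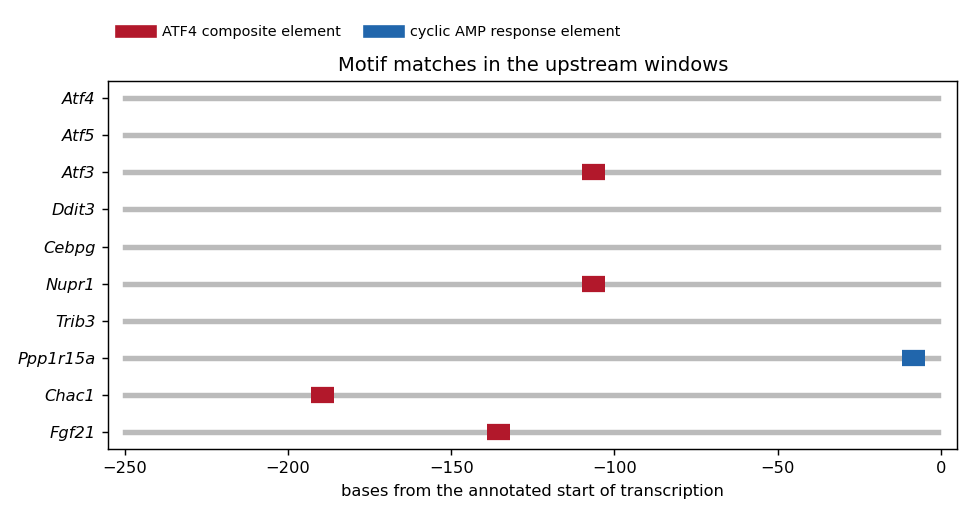
Positions of the searched elements in the 250 bases before the start site of each gene. The x axis gives bases before the start site and each line is 1 gene. The composite element sits at 110, 110, 139 and 193 bases in Nupr1, Atf3, Fgf21 and Chac1, and the cyclic AMP response element at 12 bases in Ppp1r15a.

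Levels are given as the log2 of the deposited array intensity, and differences are KO minus WT on that scale, with the standard error (SE) from a limma model fitted to all genes. A gene was called higher or lower where its Benjamini-Hochberg adjusted p over 18193 genes was under 0.05 in a two-sided test. A level of one gene was not set against that of another, because probe sets differ in how strongly they bind. Array medians lay between 34.3 and 37.3 in intensity. At 10 weeks 8 of the 10 genes were higher in KO hearts and none was lower, where 945 of all genes (5.19%) were called higher. At 4 weeks none of the 10 was called, where 5 of all genes (0.0275%) were called higher. An unadjusted p under 0.05 was found there for 7 of the 10, and for 679 of the 18193 genes. Both KO arrays lay above both WT arrays in 9 of the genes at 10 weeks (23.7% of all genes did so) and in 10 of the genes at 4 weeks (19.4% of all genes). The median difference of the 10 genes was 1.90 at 10 weeks, with 0.0048 for all genes, and 0.83 at 4 weeks, with 0.012 for all genes. The mice of one group are separate animals, and those of an age were littermates. The p-values rest on the spread between mice of a group, pooled over the 4 groups, so a spread between litters was not measured separately.

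**Figure D2:**
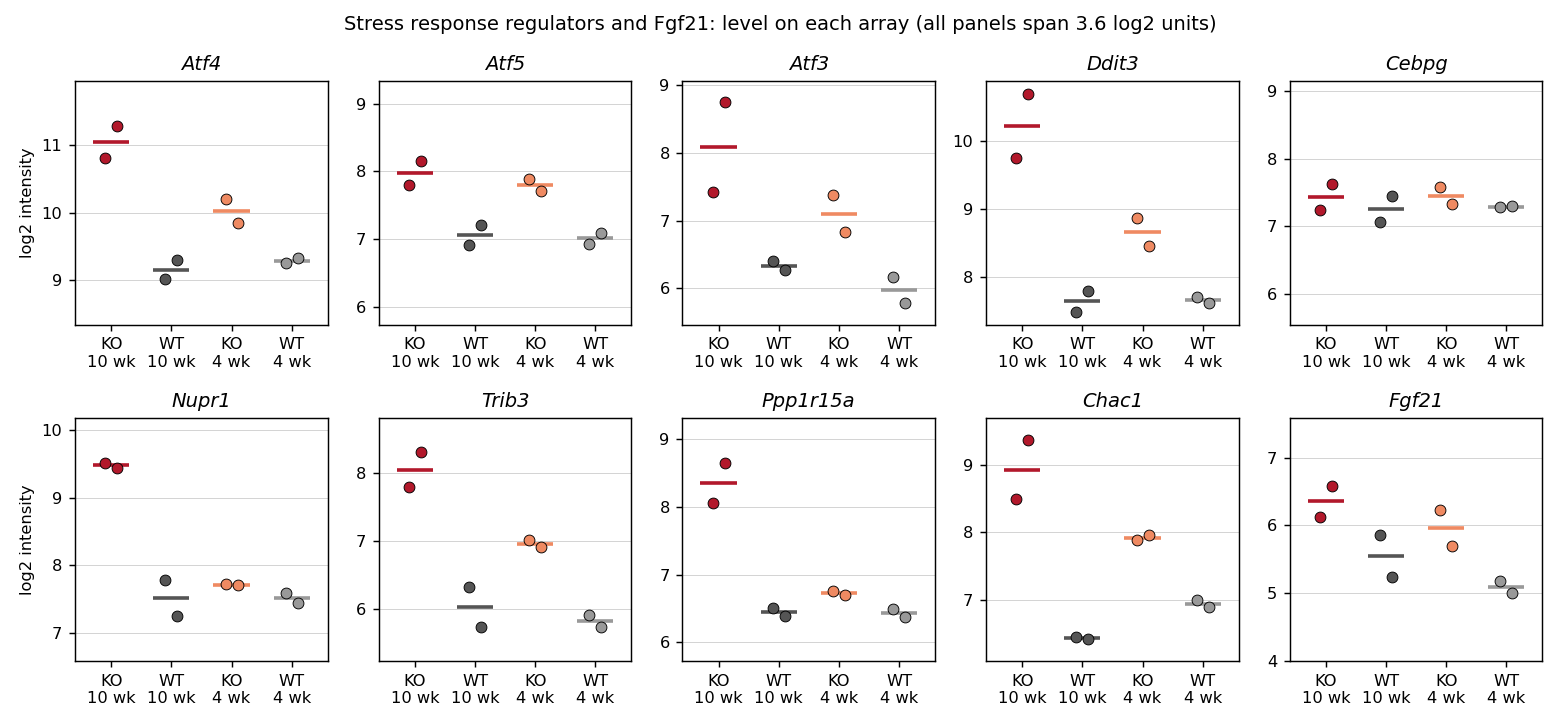
Log2 intensity of each of the 10 genes on each of the 8 arrays, 1 panel per gene and 1 point per heart, with lines at the group means. Groups run from KO to WT at 10 weeks and then KO to WT at 4 weeks. The 10-week KO points of Nupr1 (9.51 and 9.44) and Ppp1r15a (8.06 and 8.66) stand clear of the other 3 groups. Those of Atf4, Ddit3, Trib3 and Chac1 also lie above every other heart, and those of Atf3 do so narrowly. The 10-week KO points of Atf5 lie level with the 4-week KO points, and the Cebpg points overlap at 10 weeks.

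Atf4, the central transcription factor of the response, read 10.81 and 11.27 in 10-week KO hearts, against 9.01 and 9.30 in 10-week WT hearts. At 4 weeks Atf4 read 10.20 and 9.84 in KO hearts, against 9.25 and 9.33 in WT hearts. All 4 KO hearts stood above all 4 WT hearts, and those of 10 weeks stood highest. The difference was 1.89 ± 0.19 (SE) at 10 weeks, a 3.70-fold higher intensity with an adjusted p of 0.000386 in limma. At 4 weeks it was 0.73 ± 0.19, with an adjusted p of 0.836 and an unadjusted p of 0.00337. The probe set used (1448135_at) was the brightest of 3 for Atf4. A second, 1438992_x_at, gave 2.27 at 10 weeks, and the third, 1439258_at, gave 0.07, so the rise in Atf4 was read by 2 of its 3 probe sets. Whole hearts were used, and in such bulk tissue more cells of a type and more RNA per cell cannot be told apart.

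Atf5 encodes a related transcription factor that, like ATF4, is translated more when eIF2 is phosphorylated and that is tied to mitochondrial stress. It read 7.80 and 8.16 in 10-week KO hearts, against 6.91 and 7.20 in 10-week WT hearts. In 4-week hearts it read 7.89 and 7.71 in KO, against 6.93 and 7.09 in WT. The separation was about as wide at both ages. The differences were 0.93 ± 0.16 at 10 weeks (adjusted p 0.00625) and 0.79 ± 0.16 at 4 weeks (adjusted p 0.541). Their change between the ages was 0.13, with a 95% interval of -0.39 to 0.65.

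Atf3, an early stress-induced repressor and activator of the same family, had the widest SE of the 10 genes. It read 7.43 and 8.75 in 10-week KO hearts, against 6.41 and 6.27 in 10-week WT hearts, and 7.38 and 6.83 in 4-week KO hearts, against 6.16 and 5.78 in 4-week WT hearts. Its KO hearts lay above the WT hearts at both ages, with replicate 1 of the 10-week KO hearts close to replicate 1 of the 4-week KO hearts. The difference was 1.75 ± 0.36 at 10 weeks (adjusted p 0.0129), and 1.14 ± 0.36 at 4 weeks (adjusted p 0.999). Fitted to the 10-week arrays alone, the call for Atf3 was lost (adjusted p 0.0586). Without replicate 2 of the 10-week KO hearts the difference was 1.09 (adjusted p 0.0409).

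Ddit3 encodes CHOP, the factor that links prolonged stress to cell death genes, and its brightest probe set had the largest 10-week difference of the 10 genes. It read 9.76 and 10.70 in 10-week KO hearts, against 7.48 and 7.79 in 10-week WT hearts. The 4-week values were 8.86 and 8.45 in KO hearts, against 7.69 and 7.61 in WT hearts. The 10-week KO hearts stood above every other heart, and the 4-week KO hearts stood between them and the WT hearts. Ddit3 was higher by 2.59 ± 0.27 at 10 weeks, a 6.03-fold difference (adjusted p 0.000519), with a difference of 1.01 ± 0.27 at 4 weeks (adjusted p 0.955). Its second probe set, 1443897_at, gave 0.44 at 10 weeks and was not called (adjusted p 0.150). With the probe sets averaged, the 10-week difference of Ddit3 was 1.51 (adjusted p 0.00112).

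Cebpg encodes a C/EBP protein that pairs with ATF4 on the composite element. It read 7.24 and 7.62 in 10-week KO hearts, against 7.07 and 7.44 in 10-week WT hearts, and the groups overlapped. At 4 weeks it read 7.58 and 7.33 in KO hearts, against 7.29 and 7.30 in WT hearts. The differences were 0.18 ± 0.18 at 10 weeks (adjusted p 0.641, 95% interval -0.22 to 0.57) and 0.16 ± 0.18 at 4 weeks (adjusted p 0.999). The 3 probe sets of Cebpg did not read alike: 1451639_at gave 0.62 at 10 weeks (adjusted p 0.0822) and 1425261_at gave -0.17 (adjusted p 0.541). Of the 10 genes, only Cebpg and Fgf21 had no call at 10 weeks.

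Nupr1 encodes a small chromatin-associated stress protein that is a known ATF4 target. It read 9.51 and 9.44 in 10-week KO hearts, against 7.78 and 7.25 in 10-week WT hearts. At 4 weeks it read 7.72 and 7.71 in KO hearts, against 7.59 and 7.45 in WT hearts. The 10-week KO hearts stood clear of the rest, and the 4-week KO hearts lay just above the WT hearts of their age. Nupr1 was higher by 1.96 ± 0.17 at 10 weeks (adjusted p 0.000203), with a difference of 0.20 ± 0.17 at 4 weeks (adjusted p 0.999). Its second probe set, 1419665_a_at, gave 2.19 at 10 weeks and was also called.

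Trib3 encodes a pseudokinase that is switched on by ATF4 and CHOP and restrains both. It read 7.80 and 8.31 in 10-week KO hearts, against 6.32 and 5.73 in 10-week WT hearts. Trib3 at 4 weeks read 7.01 and 6.91 in KO hearts, against 5.91 and 5.73 in WT hearts. The KO hearts were above the WT hearts at both ages without overlap. The difference was 2.03 ± 0.22 at 10 weeks (adjusted p 0.000586) and 1.14 ± 0.22 at 4 weeks (adjusted p 0.487, unadjusted p 0.00047). The second probe set, 1456225_x_at, gave 2.60 at 10 weeks and 1.53 at 4 weeks.

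Ppp1r15a encodes GADD34, the subunit that directs a phosphatase to eIF2 and so ends the response. It read 8.06 and 8.66 in 10-week KO hearts, against 6.51 and 6.39 in 10-week WT hearts. At 4 weeks it read 6.75 and 6.69 in KO hearts, against 6.49 and 6.38 in WT hearts. As with Nupr1, the 10-week KO hearts were apart from all others, while the 4-week KO hearts lay little above the 4-week WT hearts. Ppp1r15a was higher by 1.91 ± 0.18 at 10 weeks (adjusted p 0.000311), with a difference of 0.29 ± 0.18 at 4 weeks (adjusted p 0.999).

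Chac1 encodes an enzyme that breaks down glutathione and is a late target of the ATF4, ATF3 and CHOP line. It read 8.49 and 9.36 in 10-week KO hearts, against 6.46 and 6.42 in 10-week WT hearts. Values at 4 weeks were 7.89 and 7.96 in KO hearts, against 6.99 and 6.89 in WT hearts. The WT hearts of 10 weeks were the lowest, and KO hearts stood above WT hearts at both ages. The difference was 2.49 ± 0.23 at 10 weeks, a 5.61-fold higher intensity (adjusted p 0.000276), and 0.98 ± 0.23 at 4 weeks (adjusted p 0.692). Fitted to the 4-week arrays alone, Chac1 (adjusted p 0.0323) and Trib3 (adjusted p 0.0204) passed at that age.

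Fgf21 read low on the array, near the array medians of 5.10 to 5.22, and its values were 6.13 and 6.58 in 10-week KO hearts, against 5.85 and 5.24 in 10-week WT hearts. At 4 weeks it read 6.22 and 5.69 in KO hearts, against 5.18 and 4.997 in WT hearts. The KO hearts were above the WT hearts at both ages. The difference was 0.81 ± 0.24 at 10 weeks, not called (adjusted p 0.0633, 95% interval 0.26 to 1.36), and 0.87 ± 0.24 at 4 weeks (adjusted p 0.989). Leaving out replicate 1 of the 10-week WT hearts gave 1.12 and a call (adjusted p 0.0162), and leaving out replicate 2 of the 10-week KO hearts gave 0.58 (adjusted p 0.331). Without replicate 2 of the 10-week WT hearts it was 0.50 (adjusted p 0.196). The liver is the main source of circulating FGF21, and the summed intensity of 11 hepatocyte markers, which ranged from 535 to 6105 over the hearts, was 1044 and 833 in 10-week KO hearts, 6105 and 1212 in 10-week WT hearts, 535 and 5778 in 4-week KO hearts and 1486 and 3886 in 4-week WT hearts. These sums were lower in KO than in WT hearts at 10 weeks and overlapped between the genotypes at 4 weeks, and their part in the Fgf21 values was not tested.

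**Figure D3:**
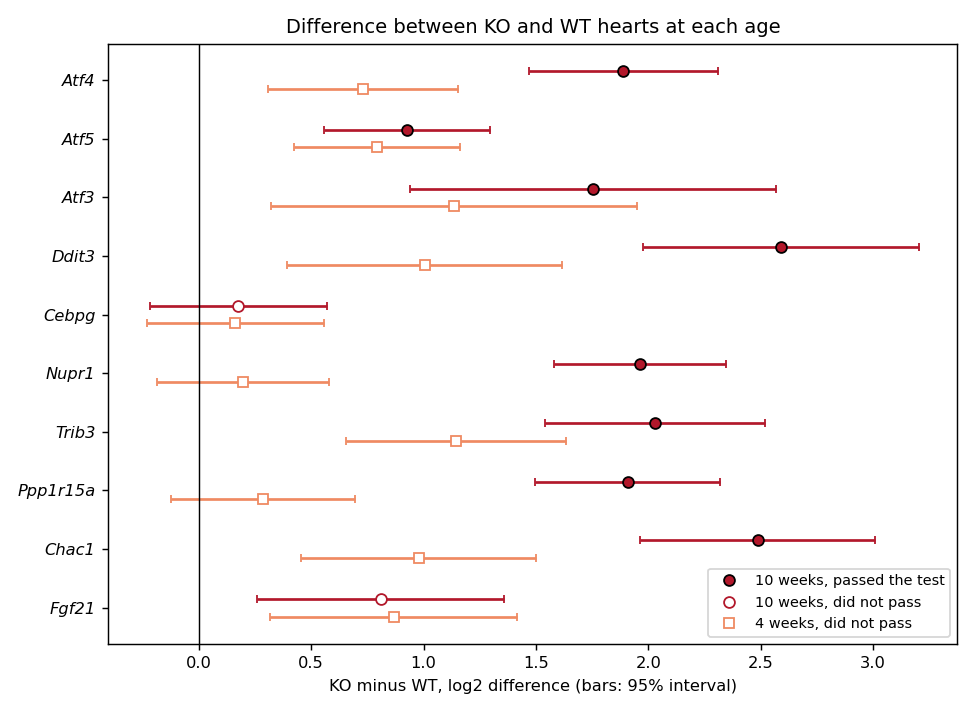
KO minus WT log2 difference (x axis) of each gene at 10 weeks and at 4 weeks, with bars for the 95% interval of the limma model. Ddit3, Chac1 and Trib3 are farthest right at 10 weeks, and Cebpg, Fgf21 and Atf5 have nearly the same value at both ages.

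**Figure D4:**
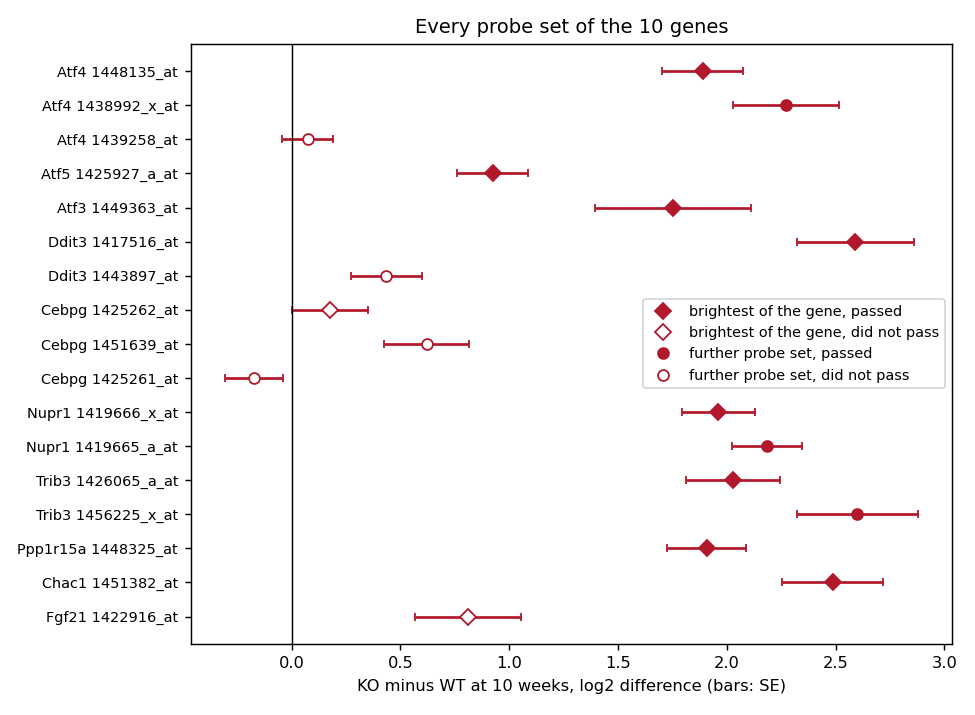
KO minus WT log2 differences (x axis) of all 17 probe sets of the 10 genes at 10 weeks, with SE bars. The further probe sets of Nupr1 and Trib3 lie beside the one used, while the third probe set of Atf4 (0.07) and the second of Ddit3 (0.44) lie well to the left of the one used.

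Tested one by one, 11 of the 17 probe sets were higher at 10 weeks, where 4.55% of the 34945 probe sets that name 1 gene were. None of the 17 was called by limma at 4 weeks, where 0.0258% were. An unadjusted p under 0.05 was found there for 10 of the 17, and at gene level for 679 of 18193 genes. The change between the ages, described next, was called for 3 of the 17, where 0.664% were. Of the 10 genes, 5 have a single probe set, so Atf5, Atf3, Ppp1r15a, Chac1 and Fgf21 rest on 1 reading each.

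How far the difference itself changed with age was tested as the 10-week difference minus the 4-week difference. The change was called for 2 of the 10 genes, where 0.879% of all genes had a larger difference at 10 weeks. For Nupr1 it was 1.76 ± 0.24 (adjusted p 0.0109) and for Ppp1r15a 1.62 ± 0.26 (adjusted p 0.0202). Ddit3 (1.59, adjusted p 0.0778), Chac1 (1.51, adjusted p 0.0541) and Atf4 (1.16, adjusted p 0.0640) missed the threshold. Over the alternatives that kept all arrays, the adjusted p for Chac1 ran from 0.0292 to 0.0845. Trib3 had 0.89 (adjusted p 0.213) and Atf3 0.62 (adjusted p 0.700). The interval for Fgf21 was wide, with -0.06 ± 0.35 and 95% bounds of -0.84 and 0.72. The call for Nupr1 was lost without either 4-week WT array, without replicate 2 of the 4-week KO hearts or without replicate 1 of the 10-week KO hearts, with adjusted p between 0.0510 and 0.0817. For Ppp1r15a it was lost without any one of the 4-week arrays, with adjusted p between 0.0698 and 0.130.

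Within the KO mice, 6 of the 10 genes were higher at 10 weeks than at 4 weeks, where 3.42% of all genes were. They were Nupr1 (1.76 ± 0.17), Ppp1r15a (1.63 ± 0.18), Ddit3 (1.57 ± 0.27), Trib3 (1.09 ± 0.22), Atf4 (1.02 ± 0.19) and Chac1 (1.01 ± 0.23). Leaving out 1 array moved this count between 2, without replicate 2 of the 4-week KO hearts, and 7, without replicate 1 of the 10-week KO hearts, and it was 3 without replicate 2 of the 10-week KO hearts. Within the WT mice none of the 10 was called, where 0.0495% of all genes were higher and 0.0660% lower. None of the 10 had an unadjusted p under 0.05 in limma, where 3285 of 18193 genes did. The largest WT differences were -0.50 ± 0.23 for Chac1 and 0.46 ± 0.24 for Fgf21. In these comparisons age cannot be told apart from litter, or from the day of processing, which the sources used here do not give.

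Genes upstream and downstream were read from lists of known function. The effectors of ATF4, genes known as its targets, include enzymes and transporters and also regulators such as Ddit4 and Gadd45a. Of 34 listed genes 31 were measured, of which 20 were higher and 1 lower at 10 weeks, and their median difference was 0.93. Of all genes, 5.19% were called higher at that age and 6.89% lower. The largest rises were in Asns, the asparagine synthetase (3.91), Psat1 of serine synthesis (3.45), Aldh18a1 of proline synthesis (3.15) and the mitochondrial folate enzyme Mthfd2 (2.46). The 1 lower gene was Map1lc3b (-0.76), which is an autophagy gene and was named after its value was seen. At 4 weeks 1 of the 31 was called, Asns (2.95), where 0.0275% of all genes were called higher. The median was 0.23.

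Upstream, the eIF2 kinases, the subunits of eIF2 and of its exchange factor and their regulators had 20 of 21 genes measured. At 10 weeks 2 were higher and 2 lower, where 5.19% and 6.89% of all genes were. Eif2s2, the beta subunit of eIF2, read 11.35 and 11.75 in 10-week KO hearts, against 10.42 and 10.41 in 10-week WT hearts, a difference of 1.13. Its further probe sets gave 1.15, 1.11, 0.88, 0.57 and 0.13. In limma those with 0.57 (adjusted p 0.0556) and 0.13 (adjusted p 0.784) were not called. Eif2b3, a subunit of the exchange factor, was higher by 0.72. Oma1, the mitochondrial protease that passes stress to the eIF2 kinases, was lower, with 7.98 and 8.09 in 10-week KO hearts, against 8.72 and 8.58 in 10-week WT hearts (-0.61), and Eif2b4 was lower by 0.51. The list's median was 0.09.

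Paralogs of the 10 genes were read beside them. Of the 11 measured paralogs, none was higher and 2 were lower at 10 weeks, where 5.19% and 6.89% of all genes were. Chac2, which also breaks down glutathione but at a low constant rate, was lower by 1.93 ± 0.18 (adjusted p 0.00025), opposite to Chac1 and read by 1 probe set. The change of its difference between the ages was -1.59 (adjusted p 0.0192). Trib2 was lower by 0.93 (adjusted p 0.00666), although its further probe sets gave -0.62 and 0.13. The paralog of Ppp1r15a, Ppp1r15b, which supplies the phosphatase in unstressed cells, had a difference of 0.21 and Trib1 of -0.41, neither called. Among 41 genes listed as other bZIP factors, the class that holds ATF4 and CHOP, 1 was higher (Mafk, 0.54) and 3 were lower (Crem -1.26, Hlf -1.06 and Jun -0.74). The list also holds Zhx1, a zinc finger and homeobox factor that is not of this class and was not called.

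Other stress response genes and early response genes were read gene by gene from 3 lists. At 10 weeks 5.19% of all genes were called higher and 6.89% lower. The unfolded protein response of the endoplasmic reticulum had 1 of 20 genes higher, the sensor Ern1 (0.78), and 3 lower, Herpud1 (-1.42), Manf (-0.84) and Canx (-0.51). The chaperone Hspa5 had a difference of 0.07 (adjusted p 0.840) and Xbp1 of 0.14 (adjusted p 0.737). Mitochondrial chaperones and proteases had 1 of 14 higher, the protease Lonp1 (1.15), and 2 lower, Hspe1 (-0.72) and Clpp (-0.56). Immediate early genes had 3 of 15 higher and 4 lower, with Nr4a1 (1.59) and Egr2 (0.90) among the higher and Dusp1 (-1.07) and Zfp36 (-1.004) among the lower. The receptors of FGF21 and the nuclear receptors that control it had none of 11 higher and 1 lower, Ppara (-0.75, adjusted p 0.0308), a nuclear receptor that drives Fgf21 in liver. Klb, the co-receptor that FGF21 needs, differed by -0.08 and Fgfr1 by 0.05.

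**Figure D5:**
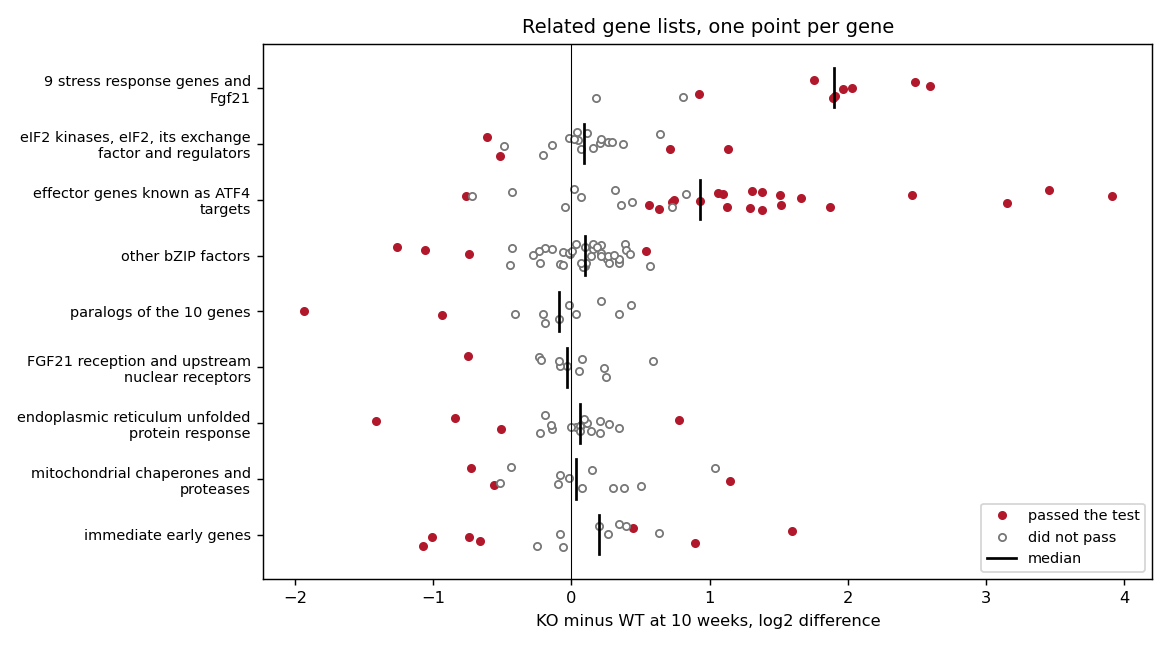
KO minus WT log2 differences at 10 weeks of the genes in each list, 1 point per gene, with the list median as a vertical line and filled points for genes that passed the test. The median of the ATF4 effectors is 0.93, and those of the eIF2, paralog, bZIP, endoplasmic reticulum, mitochondrial chaperone and FGF21 lists lie between -0.09 and 0.10, with 0.20 for the immediate early genes.

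The genes whose profile over the 8 hearts lay nearest to each of the 8 called genes were found by the root mean square of the difference between log2 profiles, each centred on its own mean. Nearest to Atf4 were Cyb5r1 (0.0958), Gars, a glycyl-tRNA synthetase (0.129), and Haus8 (0.158). For Atf5 the nearest were Cdv3 (0.124), Lars (0.143) and Yars (0.149), the last being a tyrosyl-tRNA synthetase. Nupr1 was nearest to 2410006H16Rik (0.126), Cthrc1 (0.129) and Ltbp2 (0.155), a matrix protein. For Ppp1r15a they were Pmm1 (0.169), Maoa (0.172) and Slc22a4 (0.173), for Chac1 Mthfd2 (0.216), and for Ddit3 Uck2 (0.215). Trib3 lay nearest to Plcxd2 (0.244) and Atf3 to Slc7a5 (0.268), the amino acid transporter. Of the pairs among the 10 genes, Nupr1 and Ppp1r15a were closest (0.204). The likeness is a description over 8 arrays of the same hearts.

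Cell type markers were read on the same arrays. Of all genes, 5.19% were called higher and 6.89% lower at 10 weeks. Cardiomyocyte markers were above the array median on all 8 arrays in 10 of 10 genes, with 0 higher and 3 lower at 10 weeks. Their summed intensity was 109029.7 and 120247 in 10-week KO hearts, against 120936 and 139311 in 10-week WT hearts. Fibroblast markers, the list that holds Col1a1 and Pdgfra, were higher in 7 of 8 genes, with summed intensity of 20562 and 21047 in 10-week KO hearts, against 6313 and 8375 in 10-week WT hearts. Macrophage markers were higher in 4 of 10 genes, with sums of 8569 and 6964 in 10-week KO hearts, against 5447 and 4765 in 10-week WT hearts. These moved with the 10-week comparison of Nupr1, Ppp1r15a and the other called genes, and their part in it was not tested. Atrial cardiomyocyte markers, which include Myl7 and Sln, moved with the 4-week comparison. There both KO arrays lay above both WT arrays in 6 of 6 genes, as in 19.4% of all genes. Of the 6, 0 were called, and their median difference was 1.27. Their sums were 24114 and 23703 in 10-week KO hearts, 16175 and 24529 in 10-week WT hearts, 13397 and 28501 in 4-week KO hearts and 6433 and 9461 in 4-week WT hearts. At 10 weeks Nppa was higher by 1.04 and Sln was lower (-2.35), and the list's median was -0.25. The part of these markers in the 4-week differences of the 10 genes was not tested. No marker read 0, the lowest intensity of any probe set being 4.90. The skeletal muscle list, which includes Myh7, summed to 2573 and 2853 in 10-week KO hearts and to between 602 and 698 in all others. Myh7, a myosin that heart muscle also makes, was higher by 3.06 at 10 weeks. Of the 10 genes of the list, Tnnt3 was also higher (0.69), Mybpc2 was lower (-1.73), and the median difference was -0.10. The kidney list stood at 1085 in replicate 1 of the 10-week WT hearts and between 195 and 394 elsewhere. That heart also stood apart on the second principal component (-43.3), and without it 9 of the 10 genes were called at 10 weeks, the added gene being Fgf21.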

How the data were processed

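TRIzol was used to take total RNA from each of the 8 hearts, and the biotin-labelled RNA went on 1 Affymetrix mouse array per heart. The deposited values were probe set intensities on the linear scale, and the submitters' processing notes name GCOS 1.3 and RMA as the authors' tools. The order of these steps and the RMA version are not given in the sources used here. RMA as published includes quantile normalization, but the deposited arrays were not fully equal, with medians of 34.3 to 37.3. The log2 was taken here, with no pseudocount, since the lowest intensity was 4.90.

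From 45101 probe sets, 64 controls were left out. Of the rest, 34945 name 1 gene, 932 several and 9160 none, and no probe set of several symbols names one of the 10 genes. Each gene was read by its brightest probe set over all arrays, with no filter on dim ones. limma 3.58.1 (R 4.3.3) estimated a mean for each group from all 8 arrays together, with moderated variances, 4 residual and 9.33 total degrees of freedom and a median SE of 0.145 for KO minus WT. Tests were two-sided with Benjamini-Hochberg adjustment over 18193 genes. Precision is limited by having only 2 arrays in a group. The fit was tested on simulated data.

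Named are the 10 genes with all their probe sets, up to 4 called genes with the largest difference per pathway list and their paralogs, and the 3 genes of nearest profile for each called gene, of which some are left out of the text. The 10 genes, the 8 pathway and 12 marker lists and the tests were chosen with earlier results of these data known. Listed genes numbered 269, with 251 measured. Alternatives were the probe set used, level filters, normalization, variance model, array weights, the arrays fitted, a replicate block and each array left out. The labels do not say that replicate numbers pair mice. The level of the deleted gene is not reported here. Start sites came from RefSeq promoter windows, and no gene coordinates of the array were used.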

Additional observations from a re-analysis of the deposited data

Results flagged for a closer look

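The effect of the knock-out on Nupr1 differed between the ages by a test of the difference itself. KO minus WT was 1.96 at 10 weeks and 0.20 at 4 weeks, a change of 1.76 ± 0.24 (limma, adjusted p 0.0109). The same test passed for Ppp1r15a, where KO minus WT was 1.91 at 10 weeks and 0.29 at 4 weeks, a change of 1.62 ± 0.26 (adjusted p 0.0202). In both, age and litter cannot be told apart. Both genes were read in 2 hearts per group, and Ppp1r15a by 1 probe set.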

How the results depend on the processing

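The count of 8 genes called at 10 weeks was between 7 and 9 under all alternatives, with 7 in the fit to the 10-week arrays alone, where Atf3 was lost. Fgf21 was called there with trend and robust variances (adjusted p 0.0425) and without replicate 1 of the 10-week WT hearts, and both level filters left it untested. At 4 weeks the count of 0 became 1 with array weights (Trib3, adjusted p 0.0438) and 2 in the fit to the 4-week arrays alone (Trib3, 0.0204, and Chac1, 0.0323), and it was 0 without any single array. For the change between ages the count of 2 became 4 with quantile normalization and 4 with array weights (Atf4 and Chac1 added in both) and 3 with either level filter or with trend and robust variances (Chac1 added), and ranged from 0, without either 4-week WT array or replicate 2 of the 4-week KO hearts, to 5, without replicate 2 of the 10-week WT hearts. For 10 against 4 weeks in KO that range was 2 to 7, and in WT 0 to 0.

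Over all genes, 2199 were called at 10 weeks, 3440 with probe sets tested singly (more features tested) and 959 in the 10-week arrays alone, and when 1 array was left out between 1154, without replicate 1 of the 10-week KO hearts, and 3244, without replicate 2 of the 10-week WT hearts (1324 without replicate 2 of the 10-week KO hearts). At 4 weeks 5 were called, with 9, 14 and 13 for single probe sets, array weights and the 4-week arrays alone, and 3 to 12 when 1 array was left out, 12 being without either 10-week WT array and 3 without either 4-week KO array or replicate 2 of the 4-week WT hearts. Small differences changed sign. That of Cebpg between ages was -0.033 with quantile normalization and -0.18 to 0.20 when 1 array was left out, that of Fgf21 -0.36 to 0.25, of Atf5 -0.048 to 0.31 and of Atf3 -0.044 to 1.28. The 10-week difference of Cebpg ran -0.016 to 0.37. The cause was not tested. With the replicate number as a block, the counts were 8 at 10 weeks, 0 at 4 weeks and 3 for the change, Chac1 being added (adjusted p 0.0466), and 2682 of all genes were called at 10 weeks. Deviations of same-numbered hearts correlated at 0.30 at 4 weeks and 0.23 at 10 weeks over 18193 genes.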
